A study of Mus musculus with 12 samples.

Results

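The 6 genes described here are Igf2bp1, Igf2bp2 and Igf2bp3, which encode the RNA-binding proteins IMP1, IMP2 and IMP3, the long noncoding RNA H19, and Hmga1 and Hmga2, which encode architectural chromatin proteins. They were taken by name from the 48709 genes of the count table, and all 6 passed the filter on low counts. RNA was sequenced from wild-type C57BL/6 mouse embryonic fibroblasts, a primary mesenchymal culture made from embryos of embryonic day 12.5 to 13.5, in 4 groups of 3 libraries. The siIMP2_IL17 and siControl_IL17 groups were transfected with an siRNA against IMP2 or with a control siRNA and received the cytokine interleukin-17 (IL-17) at 200 ng/mL for 8 hours, starting 24 hours after transfection. The siIMP2 and siControl groups had the same transfections without IL-17. All 4 groups therefore carry an siRNA, and the knockdown rests on the siRNA against IMP2 without another perturbation of the gene. The titles of 1 library in each group start with RB160 and those of the other 2 start with NA, and these 2 title sets were a term in the fits of exon reads and of reads outside exons, unless stated. No label states whether replicate libraries were grown as separate cultures. The p-values thus reflect library-to-library spread alone, and this can be technical. In bulk RNA, fewer cells that express a gene and less of its RNA per cell cannot be told apart.

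The IMP proteins are oncofetal RNA-binding proteins with KH and RRM domains that bind mRNA, often at N6-methyladenosine (m6A), and affect its stability, transport and translation. H19 is an imprinted noncoding RNA, expressed from the maternal allele, neighbour of the growth factor gene Igf2 and host of the microRNA miR-675. HMGA proteins bend AT-rich DNA and are abundant in embryonic, proliferating and transformed cells. The IMP genes and Hmga2 are known as targets of let-7, a microRNA family that accumulates as cells differentiate, and the LIN28 proteins block let-7 maturation. H19 has been described as a sponge for let-7 and as a binding partner of IMP proteins.

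The sequences below are the let-7 seed and the miR-675 strands that H19 carries. They are followed by the let-7 seed matches in the 3′ untranslated regions (UTRs) of the 5 protein-coding genes. H19 was not searched for let-7 matches, and no gene was searched for miR-675 matches. Of 11 mature let-7 family microRNAs in the RefSeq table for GRCm38, 10 share the seed of let-7a, which is bases 2 to 8 and is in capitals. The microRNA sequences come from RefSeq, and no microRNA was measured in these libraries.
mmu-let-7a-5p: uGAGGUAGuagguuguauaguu
mmu-let-7i-5p: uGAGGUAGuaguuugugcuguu
mmu-miR-98-5p: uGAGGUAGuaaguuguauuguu
mmu-miR-675-5p: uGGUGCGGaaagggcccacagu
mmu-miR-675-3p: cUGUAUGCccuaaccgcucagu
The miR-675 strands lie within H19, on the minus strand at chr7:142577112-142577133 for the 5p strand and chr7:142577078-142577099 for the 3p strand (GRCm38).

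The DNA letters that pair with the let-7 seed, CTACCTC, were searched on the sense strand only in the longest annotated 3′ UTR of each gene (GENCODE, GRCm38), and matches did not overlap each other. Each line is a window of 30 bases, 5′ to 3′ on the transcript strand, with the match in capitals.
Hmga2 at chr10:120364223-120364252, minus strand: gggggcgccgacattcaatttCTACCTCag
Hmga2 at chr10:120362986-120363015, minus strand: aataatccccactcctcaataCTACCTCtg
Hmga2 at chr10:120362548-120362577, minus strand: gacttcctgatttgcaaggaaCTACCTCca
Hmga2 at chr10:120361690-120361719, minus strand: ttgtacaatcaaaacacactaCTACCTCtt
Igf2bp1 at chr11:95961777-95961806, minus strand: ggcagtgctgtgcgaagtaaaCTACCTCaa
Igf2bp1 at chr11:95959356-95959385, minus strand: gggaaccagcagtgctattaaCTACCTCag
Igf2bp1 at chr11:95958762-95958791, minus strand: ctacgagtataaatggatgaaCTACCTCag
Igf2bp1 at chr11:95958139-95958168, minus strand: tgtttcacttttggttttaatCTACCTCtt
Igf2bp2 at chr16:22059472-22059501, minus strand: agaaaaacacacaaataaaagCTACCTCag
Igf2bp3 at chr6:49086786-49086815, minus strand: taaacgtgcatttttactcaaCTACCTCag
Hmga1 at chr17:27563271-27563300, plus strand: atcttctcctctgttcacaaaCTACCTCtg

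All 5 protein-coding members held at least 1 match, whereas 1325 of 12380 tested genes with an annotated 3′ UTR did (10.7%). Hmga2 and Igf2bp1 held 4 each, a number that 9 genes reached (0.0727%), and the highest was 8. Hmga2 carried 1.33 matches per kb of its 3014-nucleotide 3′ UTR and Igf2bp1 carried 0.631 per kb of 6337 nucleotides, against 0.0728 per kb over the 3′ UTRs of all these genes. Long UTRs hold the motif more often. Of genes whose 3′ UTR and the member's stood in a length ratio of at least 80%, 16.5% held it for Hmga2, 36% for Igf2bp1, 13.9% for Igf2bp3, 12.6% for Igf2bp2 and 8.96% for Hmga1. The match was followed by an A, which favours pairing in the known targeting rules, at 3 of 4 places in Igf2bp1, at 1 of 4 in Hmga2, at the match of Igf2bp2 and at that of Igf2bp3, but not at that of Hmga1. These matches describe the annotated transcript, and binding was not measured.

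**Figure D1:**
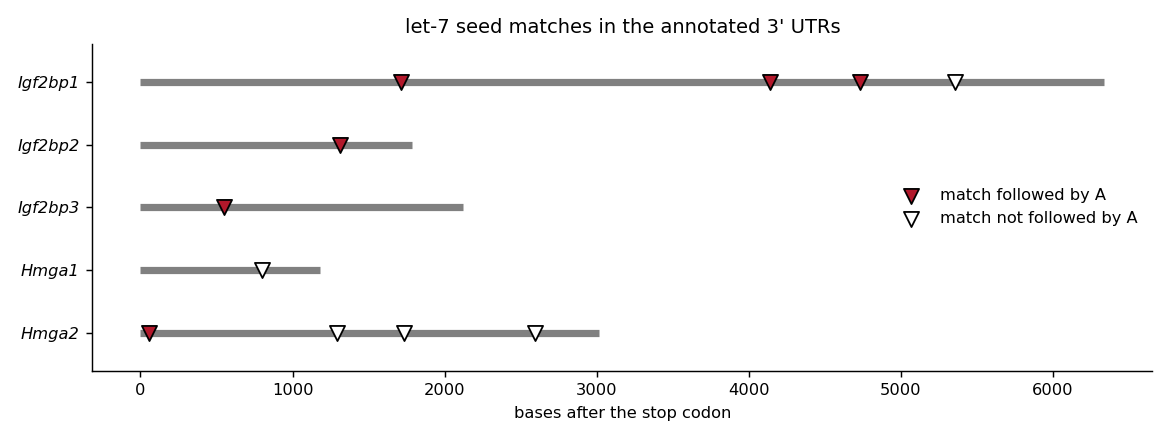
Positions of let-7 seed matches along the 3′ UTR of the 5 protein-coding members, in nucleotides from the first UTR base. Each line is a UTR drawn to scale and each mark a match, red where an A follows, so that Igf2bp1 and Hmga2 show 4 marks each and the other genes 1.

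Exon counts ranged from 33841054 to 44433699 per library, and 4.49 to 6.42% of the reads in genes lay outside exons. Counts were also expressed as CPM, exon counts scaled to library size with TMM factors, where 1 CPM stood for 31.9 to 50.9 reads. The deposited TPM values set levels of different genes per length of exon. The 14 fibroblast markers all had reads, but levels were uneven, and the scarcest reached at most 0.193 TPM in any library. They summed to 15840 to 18819 TPM in the RB160 libraries and 13169 to 15644 TPM in the NA libraries. Their sum was 13877 to 15954 TPM in siIMP2_IL17 and 13169 to 15840 TPM in siControl_IL17, and 14554 to 18819 TPM in siIMP2 and 14712 to 17838 TPM in siControl libraries. Of the 13 tested, 2 were called higher and 8 lower in the mean of both siRNA effects (edgeR). In that mean 24.1% of all genes were called higher and 25.3% lower. Of 5 macrophage markers in the count table, Adgre1 and Tyrobp had 0 counts in all 12 libraries and 2 others were tested. The 5 summed to 7.4 to 9.37 TPM in RB160 and 5.89 to 10.5 TPM in NA libraries. Neural markers summed to 208 to 258 TPM in RB160 and 382 to 439 TPM in NA libraries. The part of these marker differences in the results below was not tested.

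By level per length, Hmga1 was the most abundant member at 831 to 1497 TPM over the 12 libraries, above Hmga2 (171 to 401 TPM) in 12 of 12. Hmga2 stood above Igf2bp2 in 12 of 12 libraries. Igf2bp2 spanned 6.65 to 66.8 TPM and stood above Igf2bp3 in 6 of 12 libraries. Igf2bp3 (12.9 to 20.3 TPM) and Igf2bp1 (12.4 to 14.6 TPM) were neighbours whose ranges overlapped, with Igf2bp3 above in 10 of 12 libraries. H19 was lowest, at 0.159 to 15.9 TPM, and Igf2bp1 stood above it in 11 of 12 libraries. Within each siRNA the order of the group means was the same with and without IL-17: Igf2bp2 was the third most abundant member in both siControl groups and the fifth, under Igf2bp3 and Igf2bp1, in both siIMP2 groups.

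**Figure D2:**
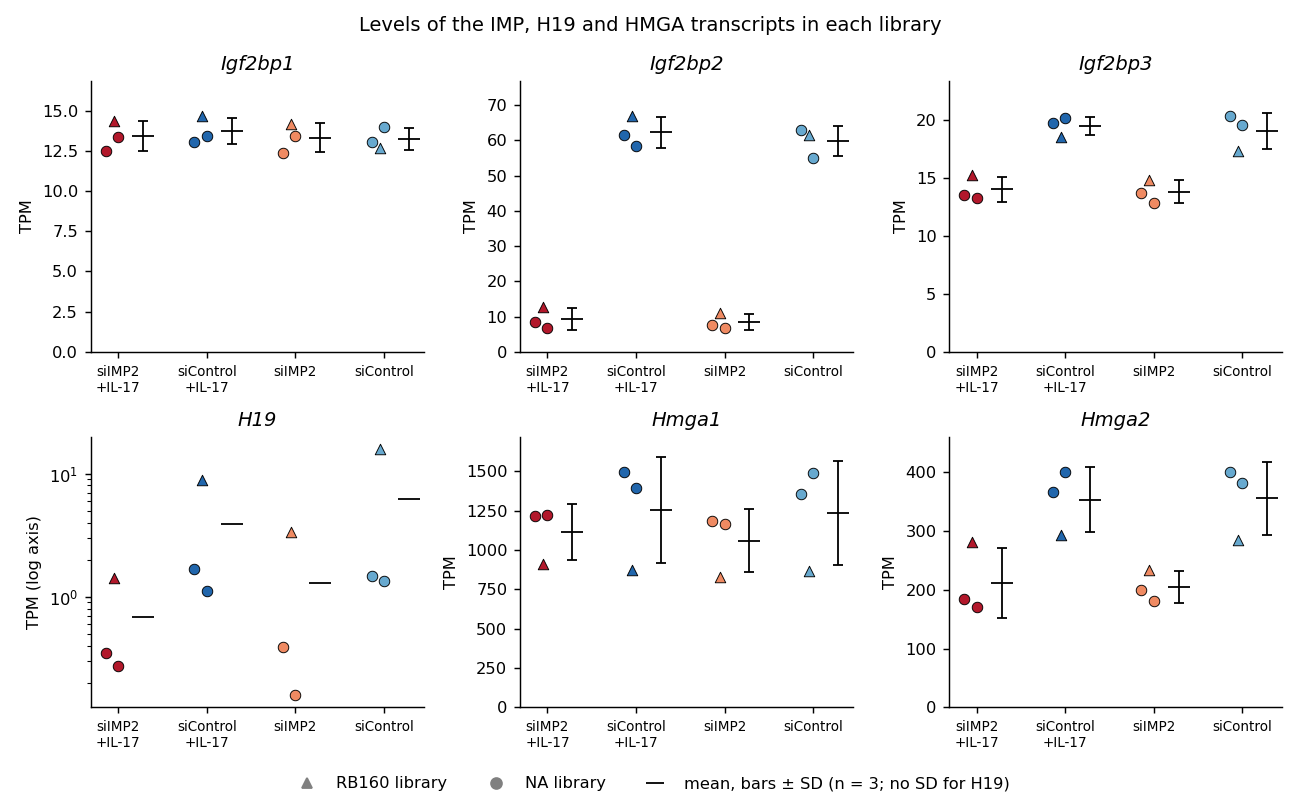
Level of the 6 members in TPM in each library of the 4 groups, with circles for NA and triangles for RB160 libraries and the mean ± SD of 3 libraries. H19 is on a log axis without an SD. Igf2bp2 lies at 6.65 to 12.8 TPM in the siIMP2 groups and at 55 to 66.8 TPM in the siControl groups.

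Igf2bp2, the gene targeted by the siRNA, is at chr16:22059009-22163299 on the minus strand (ENSMUSG00000033581, mm10). It had 12.8, 8.47 and 6.65 TPM in siIMP2_IL17 libraries (RB160, then both NA), against 66.8, 61.6 and 58.3 TPM in siControl_IL17 libraries. Without IL-17 it had 11, 7.7 and 6.75 TPM in siIMP2 libraries, against 61.5, 62.8 and 55 TPM in siControl libraries. The groups did not overlap, which also held for the exon CPM. Igf2bp2 fell by 2.77 ± 0.15 on the log2 scale (SE) in siIMP2 against siControl (edgeR, adjusted p = 1.58e-07), which left 14.7% of the siControl level. After IL-17 it fell by 2.70 (adjusted p = 2.04e-07 in edgeR). Both comparisons called many genes, 32.9% of 13702 without and 33.4% with IL-17. In the mean of both siRNA effects 49.5% of genes were called, and Igf2bp2 had the 8th smallest p.

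Igf2bp3 (chr6:49085223-49214957, minus strand, ENSMUSG00000029814), which encodes a paralog usually restricted to fetal and cancer tissue, was lower with the IMP2 siRNA. It had 15.3, 13.5 and 13.3 TPM in siIMP2_IL17 libraries, against 18.6, 19.7 and 20.1 TPM in siControl_IL17 libraries. It had 14.8, 13.7 and 12.9 TPM in siIMP2 libraries, against 17.3, 20.3 and 19.6 TPM in siControl libraries. The TPM of the groups did not overlap in either comparison, as held for 15.2% of genes after IL-17 and 15.3% without it. On the exon CPM scale the RB160 siControl library, at 43.0 CPM, lay below the highest siIMP2 library, at 45.4 CPM. Igf2bp3 fell, with log2 fold changes of -0.40 ± 0.08 in siIMP2 against siControl and of -0.40 after IL-17 (edgeR, adjusted p = 0.002 and 0.00166), which are small beside that of Igf2bp2. Of its reads 70.3 to 74.9% mapped uniquely, and the gene overlaps Malsu1 on the opposite strand, which had 470 to 760 exon counts and fell by 0.17 ± 0.06 (adjusted p = 0.0286) in the mean siRNA effect.

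Igf2bp1 (chr11:95957163-96005940, minus strand, ENSMUSG00000013415), which encodes the paralog known for binding Actb and Myc mRNA, did not pass the test in either siRNA comparison. It had 14.4, 12.5 and 13.4 TPM in siIMP2_IL17 libraries, against 14.6, 13.1 and 13.5 TPM in siControl_IL17 libraries. It had 14.2, 12.4 and 13.4 TPM in siIMP2 libraries, against 12.7, 13.1 and 14 TPM in siControl libraries. The groups overlapped in both comparisons. The log2 difference was 0.08 ± 0.06 without IL-17 and 0.04 with it (edgeR, adjusted p = 0.332 and 0.628), and all 12 libraries lay between 12.4 and 14.6 TPM.

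Summed over the 3 IMP genes, the family had 36.8 ± 4.96 TPM in siIMP2_IL17 and 95.4 ± 4.16 TPM in siControl_IL17 libraries, and 35.6 ± 3.85 TPM in siIMP2 and 92.1 ± 3.87 TPM in siControl libraries (SD, n = 3 each). Igf2bp2 made up 24.9 ± 5.13% of the family sum in siIMP2_IL17 and 65.2 ± 1.68% in siControl_IL17 libraries. Its share was 23.6 ± 3.59% in siIMP2 and 64.9 ± 2.59% in siControl libraries. Igf2bp1 and Igf2bp3 took 36.8 and 38.3% of the sum in siIMP2_IL17, against 14.4 and 20.5% in siControl_IL17. The composition of IMP transcripts therefore differed with the siRNA, with Igf2bp2 the largest part in all 6 siControl libraries.

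**Figure D3:**
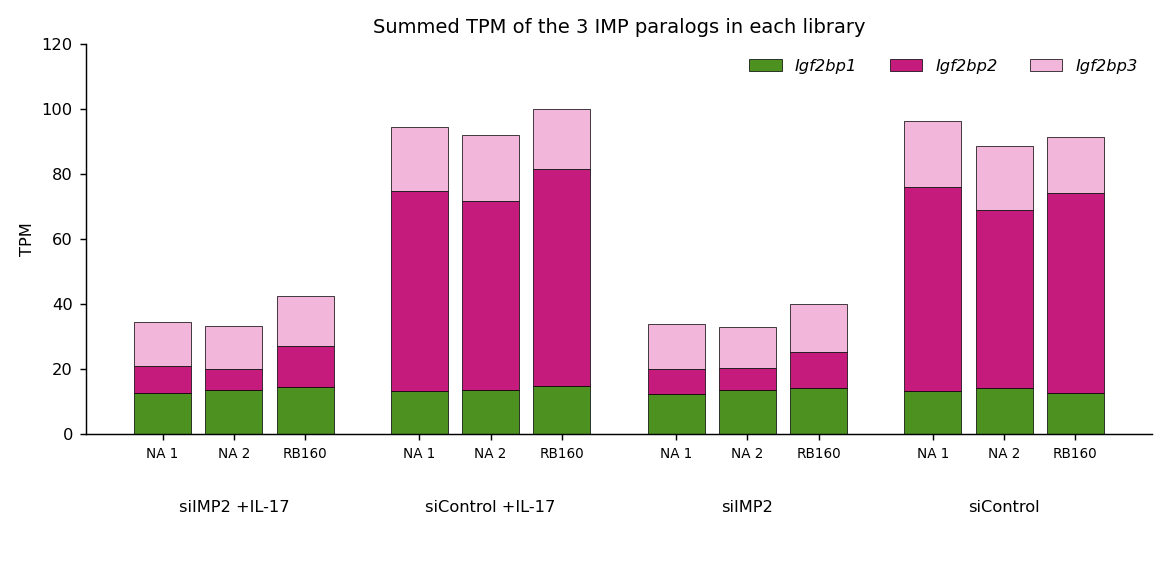
Stacked TPM of Igf2bp1, Igf2bp2 and Igf2bp3 in each of the 12 libraries, siIMP2 groups beside their siControl groups. The siIMP2_IL17 libraries average 36.8 TPM and the siControl_IL17 libraries 95.4 TPM, and Igf2bp2 accounts for 24.9% and 65.2% of these sums.

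H19 (chr7:142575529-142578143, minus strand, ENSMUSG00000000031, a lincRNA with 2372 bases of exon) was scarce in the NA libraries and higher in the RB160 libraries. It had 47, 11 and 8 exon reads in siIMP2_IL17 libraries (RB160, then both NA), against 313, 57 and 34 in siControl_IL17 libraries. Without IL-17 it had 105, 13 and 5 reads in siIMP2 libraries, against 482, 48 and 40 in siControl libraries. The pooled groups overlapped, because the RB160 siIMP2 libraries reached the NA siControl libraries. Among the NA libraries alone the exon CPM of the groups did not overlap. That also held for 64.5% of all genes without IL-17 and 68.3% with it. H19 fell, with a log2 fold change of -2.14 ± 0.30 in siIMP2 against siControl and of -2.46 ± 0.35 after IL-17 (edgeR, adjusted p = 0.000195 and 0.000171). Within the sets the siIMP2 against siControl difference was -2.18 in the RB160 pair and -2.25 in the NA libraries (adjusted p = 0.0017 in edgeR on the NA libraries). After IL-17 it was -2.51 in the RB160 pair and -2.09 in the NA libraries (adjusted p = 0.00237).

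In the annotation H19 overlaps Mir675, which has no exon length of its own in the count table and 0 counts. The next tested genes were Mrpl23, a mitochondrial ribosomal protein gene, with a mean siRNA effect of 0.02 (adjusted p = 0.777), and Igf2, 72623 bp away. Igf2 had 529 to 663 exon counts in the 4 RB160 libraries and 2 to 15 in the 8 NA libraries. Its mean siRNA effect was -0.26 ± 0.18 and did not pass the test (edgeR, adjusted p = 0.259).

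Hmga2 (chr10:120361275-120476469, minus strand, ENSMUSG00000056758), a fetal growth and mesenchymal gene, was lower with the IMP2 siRNA in the NA libraries. It had 281, 184 and 171 TPM in siIMP2_IL17 libraries (RB160, then both NA), against 293, 367 and 401 TPM in siControl_IL17 libraries. It had 234, 200.4 and 181 TPM in siIMP2 libraries, against 285, 401 and 383 TPM in siControl libraries. The TPM of the groups did not overlap, but the RB160 libraries stood closer than the NA libraries, at 281 against 293 TPM with IL-17 and 234 against 285 TPM without it. Over all genes the TPM of the groups did not overlap for 15.2% with and 15.3% without IL-17. On the exon CPM scale the RB160 libraries had 587 CPM in siIMP2_IL17 and 579.8 CPM in siControl_IL17. Hmga2 fell by 0.73 ± 0.18 in siIMP2 against siControl (edgeR, adjusted p = 0.00899). After IL-17 it fell by 0.68 ± 0.18 (adjusted p = 0.0133). The second of these calls was lost when siIMP2_IL17 replicate 1 or 2 or siControl_IL17 replicate 2, all NA libraries, was left out (adjusted p = 0.063, 0.0727 and 0.0584).

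Hmga1 (chr17:27556620-27563674, plus strand, ENSMUSG00000046711) encodes the other HMGA protein. It had 909, 1214 and 1220 TPM in siIMP2_IL17 libraries, against 872, 1497 and 1395 TPM in siControl_IL17 libraries. It had 831, 1188 and 1164 TPM in siIMP2 libraries, against 865, 1357 and 1490 TPM in siControl libraries. The groups overlapped because the RB160 libraries were low in every group. The log2 difference was -0.13 ± 0.07 without IL-17 and -0.08 with it (edgeR, adjusted p = 0.184 and 0.454). Its mean siRNA effect of -0.10 ± 0.05 did not pass the test (adjusted p = 0.11), but passed in the NA libraries alone (-0.19, adjusted p = 0.0115), with uniquely mapped reads (-0.15, adjusted p = 0.0171), and without siControl_IL17 or siIMP2_IL17 replicate 3 (-0.14 each, adjusted p = 0.0367 and 0.0434). Of the Hmga1 reads only 33.7 to 39.1% mapped uniquely, so its count is uncertain where reads map to more than 1 place.

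The ratio of Hmga1 to Hmga2 TPM was 5.65 ± 2.11 in siIMP2_IL17 and 3.51 ± 0.553 in siControl_IL17 libraries, and 5.31 ± 1.54 in siIMP2 and 3.44 ± 0.433 in siControl libraries (SD, n = 3 each). The spread in the siIMP2 groups was wide, from 3.23 to 7.12 after IL-17, because of the RB160 libraries.

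Across the 6 members, 4 were called lower and 0 higher in each siRNA comparison: Igf2bp2, H19, Hmga2 and Igf2bp3. Over all genes 16.7% were called lower in each, and 16.1% without and 16.7% with IL-17 were called higher. Exon CPM did not overlap between siIMP2 and siControl for Igf2bp2 and Hmga2, as held for 18.7% of all tested genes, and after IL-17 for Igf2bp2, against 18.8%. Among the NA libraries alone the groups did not overlap in either comparison for the 5 members other than Igf2bp1, but 64.5% of all genes without IL-17 and 68.3% with it also did not. In a fit without the title set as a term the call of Igf2bp2 held, and the others were lost in both comparisons. The adjusted p was then 0.442 without and 0.408 with IL-17 for H19, 0.148 and 0.172 for Hmga2, and 0.254 and 0.245 for Igf2bp3 (edgeR). The headers of the authors' deposited table call the reference group Mock, taken here as the control siRNA. In that table Igf2bp2 was the member with an FDR under 0.05, with log2 fold changes of -2.76 without and -2.69 with IL-17. The same table gave H19 -2.21 and -2.39, Hmga2 -0.75 and -0.71, and Igf2bp3 -0.40 and -0.41, with FDR values of 0.357 or more.

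**Figure D4:**
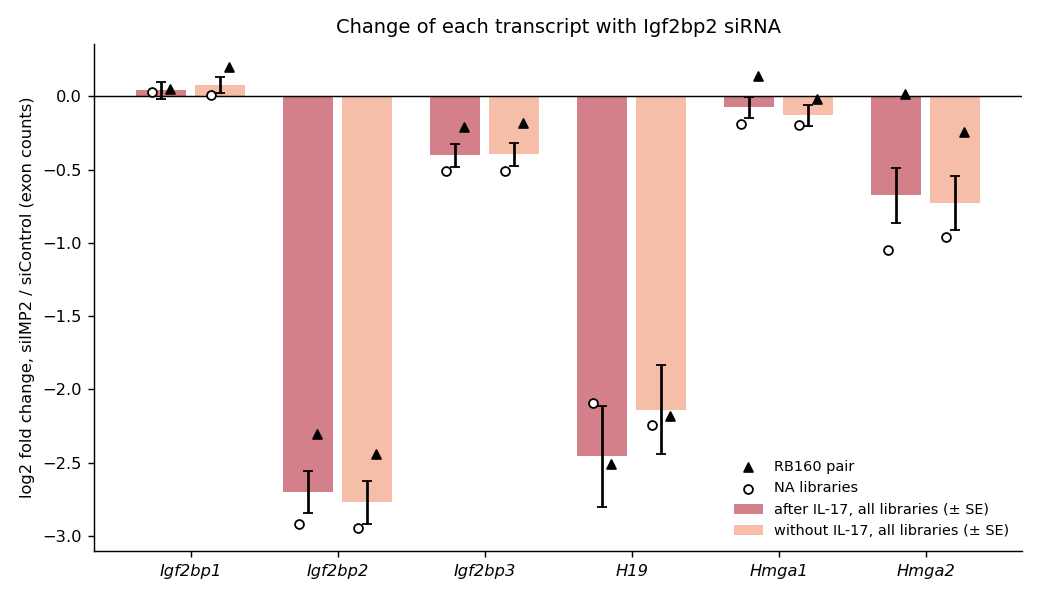
Log2 fold changes of the 6 members for siIMP2_IL17 against siControl_IL17 and siIMP2 against siControl. Bars are the edgeR estimate ± SE over 12 libraries, circles the NA libraries alone and triangles the RB160 pair. For Hmga2 after IL-17 the NA libraries lie at -1.05 and the RB160 pair at 0.02.

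The title sets differed in several members whatever the siRNA. In RB160 against NA libraries 69.5% of genes were called, 34.9% higher and 34.6% lower, so most genes passed this test. H19 was higher in RB160 by 2.71 ± 0.21 on the log2 scale, 6.53-fold (edgeR, adjusted p = 1.39e-07), and Igf2 by 5.49 ± 0.18 (adjusted p = 8.25e-11). Hmga1 was lower in RB160 by a log2 difference of -0.93 ± 0.06, at 52.5% of the NA level (adjusted p = 1.48e-08). Igf2bp3 (-0.33 ± 0.06, adjusted p = 0.000249) and Igf2bp1 (-0.25 ± 0.04, adjusted p = 0.000146) were also lower. Hmga2 (-0.29 ± 0.14, adjusted p = 0.0805) and Igf2bp2 (0.04 ± 0.10, adjusted p = 0.76) did not pass the test. Each group holds 1 RB160 library, and what the titles stand for is not given.

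The size of the siRNA effect also differed between the sets for 3 members, in a fit with a term for that difference that called 5.2% of genes, 3.11% as higher in RB160. That count, 712 genes, was 130 without siIMP2_IL17 replicate 3, 249 without siControl replicate 3, 372 without siIMP2 replicate 3 and 464 without siControl_IL17 replicate 3, which are the RB160 libraries. Leaving out siIMP2 or siIMP2_IL17 replicate 2 gave 414 and 416 genes, and no filter on low counts gave 1200. Hmga2 had log2 differences of -0.25 in the RB160 pair and -0.96 in the NA libraries without IL-17, and of 0.02 and -1.05 with it. The difference of its effect, RB160 minus NA, was 0.88 ± 0.12 (edgeR, adjusted p = 0.00171). Igf2bp2 had -2.44 in the RB160 pair and -2.94 in the NA libraries without IL-17, and -2.30 and -2.92 with it, a difference of 0.55 ± 0.14 (adjusted p = 0.0328). For Igf2bp3 the values were -0.18 and -0.51 without IL-17 and -0.21 and -0.51 with it, a difference of 0.30 ± 0.08 (adjusted p = 0.0444). The Hmga2 call held with each library left out. The Igf2bp2 call was lost in 7 of 12 such fits (adjusted p = 0.0541 to 0.241), those without an RB160 library, siControl_IL17 replicate 1, siIMP2 replicate 2 or siIMP2_IL17 replicate 2. The Igf2bp3 call was lost in 11 of 12 (adjusted p = 0.0604 to 0.226) and held without siIMP2 replicate 1. The difference did not pass the test for Hmga1 (0.24 ± 0.08, adjusted p = 0.115), Igf2bp1 (0.10 ± 0.08, adjusted p = 0.538) and H19 (-0.15 ± 0.52, adjusted p = 0.908). The part of the Igf2bp2 difference in those of Hmga2 and Igf2bp3 was not tested.

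IL-17 did not move any of the 6 members past the test, in a mean IL-17 effect over both siRNAs that called 2.72% of genes. That count, 373 genes, was 198 without siIMP2 replicate 3, 233 without siIMP2 replicate 2 or siIMP2_IL17 replicate 3, and 247 without siControl replicate 3. The mean effect was 0.08 ± 0.10 for Igf2bp2 (edgeR, adjusted p = 0.753), 0.02 ± 0.06 for Igf2bp3 (adjusted p = 0.924) and 0.02 ± 0.04 for Igf2bp1 (adjusted p = 0.865). It was 0.04 ± 0.05 for Hmga1 (adjusted p = 0.776) and 0.01 ± 0.13 for Hmga2 (adjusted p = 0.988). The largest difference was that of H19, -0.58 ± 0.23 (adjusted p = 0.233), with -1.05 in the RB160 pairs and 0.08 in the NA libraries. The difference of the siRNA effect with and without IL-17 was called for 0 genes by edgeR, and 152 of 13702 genes (1.11%) had an unadjusted p under 0.05. DESeq2 and limma-voom called 0 as well.

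Reads in a gene but outside its exons come largely from introns and are used here as a second readout of the same libraries, in CPM of all such reads. For Igf2bp2 they numbered 94, 77 and 74 in siIMP2_IL17 libraries (RB160, then both NA), against 167, 81 and 82 in siControl_IL17 libraries. They numbered 58, 62 and 82 in siIMP2 libraries, against 79, 87 and 74 in siControl libraries. The counts of the groups overlapped in both comparisons. These reads made up 5.28 to 11.4% of Igf2bp2 gene reads in siIMP2 and 1.39 to 1.49% in siControl libraries, and 6.87 to 11.2% in siIMP2_IL17 and 1.28 to 2.30% in siControl_IL17 libraries. The log2 difference outside exons was -0.36 ± 0.17 for siIMP2 against siControl and -0.27 after IL-17, and neither passed the test (edgeR, adjusted p = 0.197 and 0.345), where 10.8% and 10.7% of genes were called. The mean siRNA effect on exon reads minus that on reads outside exons was -2.40 ± 0.14 for Igf2bp2 (adjusted p = 5.36e-17), the smallest p of 11508 genes, of which 9.55% were called and 5.21% called lower.

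For Hmga2 reads outside exons were lower too. It had 443, 721 and 690.4 CPM of outside reads in siIMP2_IL17 libraries, against 381, 1145 and 1134 in siControl_IL17 libraries. It had 376, 731 and 661 in siIMP2 libraries, against 372, 1098 and 1152 in siControl libraries. The NA libraries of the groups stood apart, and the RB160 pairs did not show the decrease. The log2 difference was -0.47 ± 0.15 for siIMP2 against siControl (edgeR, adjusted p = 0.0359) and -0.38 ± 0.14 after IL-17 (adjusted p = 0.0947), and the mean effect, -0.43 ± 0.10, passed the test (adjusted p = 0.00327), as did 22.2% of genes, 11.2% higher and 11% lower. The call without IL-17 was lost with size factors from exon reads (adjusted p = 0.164), without the title-set term (0.774) and without replicate 1 or 2 of either group (0.118 to 0.188). The difference of the outside effect between RB160 and NA libraries was 0.81 ± 0.14 (adjusted p = 0.00118), where 1.27% of genes were called. Exon reads moved further than outside reads by a log2 difference of -0.28 ± 0.07 (adjusted p = 0.00609). The annotation places 1700006J14Rik, 9230105E05Rik and Mir763 within Hmga2, and the exon counts of 1700006J14Rik were 0 to 12.

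Hmga1 reads outside exons did not follow its exon reads. It had 136, 224 and 228 CPM of outside reads in siIMP2_IL17 libraries, against 88.5, 210.2 and 205 in siControl_IL17 libraries. It had 106, 222 and 213 in siIMP2 libraries, against 69.5, 195 and 198 in siControl libraries. Values were higher with the IMP2 siRNA in the same title set, and overlapped between the pooled groups. The mean effect outside exons was 0.28 ± 0.08 (edgeR, adjusted p = 0.0161), against -0.10 ± 0.05 in exons (adjusted p = 0.11), and exon minus outside was -0.39 ± 0.08 (adjusted p = 0.000944). The call outside exons was lost without siControl, siControl_IL17 or siIMP2_IL17 replicate 3, all RB160 libraries (adjusted p = 0.0628, 0.0526 and 0.0764), and without the title-set term (0.763). Hmga1 overlaps AI413582 on the opposite strand, which had 233 to 402 exon counts and a mean siRNA effect of 0.13 (adjusted p = 0.241), and whether the counting used strand is not given.

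The outside reads of the other IMP genes were few. Igf2bp1 had 39 to 63 in siIMP2_IL17 and 48 to 83 in siControl_IL17 libraries, and its outside CPM did not overlap between the siRNAs in either comparison (19.3 to 27.7 in siIMP2 and 27.99 to 32.0 in siControl libraries). That also held for 14% of 11508 genes without and 13.1% with IL-17. Its mean outside effect, -0.28 ± 0.13, did not pass the test (edgeR, adjusted p = 0.125), nor did exon minus outside, 0.34 ± 0.12 (adjusted p = 0.0798). For Igf2bp3 the values were -0.17 ± 0.10 (adjusted p = 0.223) and -0.21 ± 0.11 (adjusted p = 0.237). H19 had 0 or 1 read outside exons per library and was not tested.

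**Figure D5:**
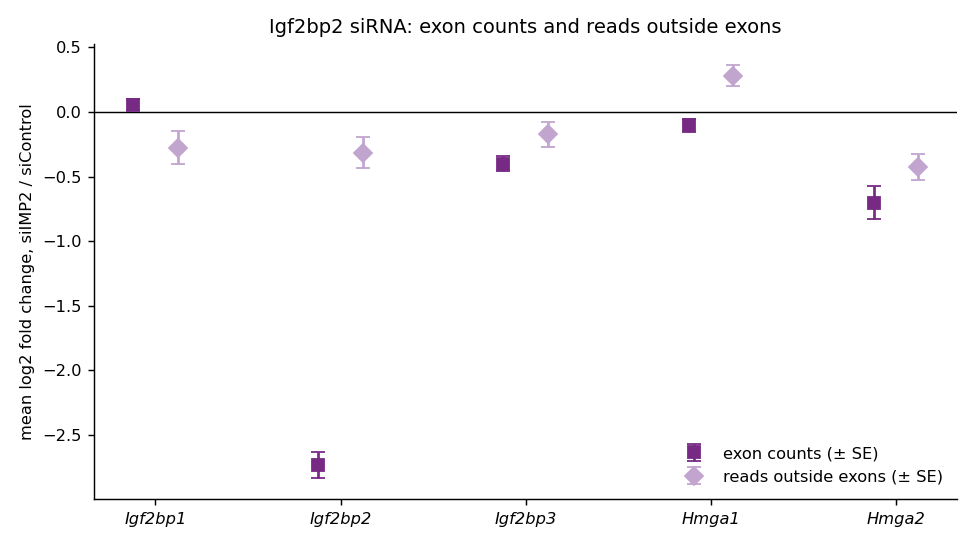
Mean siRNA effect (log2, ± SE) on exon reads and on reads outside exons for the 5 members tested in both. Igf2bp2 lies at -2.74 in exons and -0.31 outside, Hmga2 at -0.70 and -0.43, and Hmga1 at -0.10 and 0.28.

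The surroundings of let-7 in these cells were read from genes with known roles. The LIN28 genes Lin28a and Lin28b had 0 counts in all 12 libraries. Over all genes 24.1% were called higher and 25.3% lower in the mean siRNA effect, with a median of -0.0022. Of the 7 measured genes of let-7 processing, 1 rose and 1 fell (edgeR), with a median of -0.016. Dis3l2, the exonuclease that degrades uridylated pre-let-7, fell by 1.10 ± 0.06 (adjusted p = 5.58e-08), by 1.19 in siIMP2 against siControl and by 1.00 after IL-17. Ago2, which encodes the Argonaute that loads microRNAs, rose by 0.13 ± 0.04 (adjusted p = 0.0225). Of 21 other reported let-7 target genes 9 rose and 6 fell, with a median of 0.013. Arid3b, a DNA-binding factor, rose by 0.66 ± 0.08 (adjusted p = 3.35e-05) and the ubiquitin-conjugating enzyme gene Cdc34 by 0.39 ± 0.04 (adjusted p = 9.21e-06). Fndc3a fell by 0.58 ± 0.05 (adjusted p = 2.08e-06).

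H19 belongs to a network of imprinted growth genes, of which 20 were measured. In the mean siRNA effect 4 rose (Grb10, Meg3, Plagl1 and Impact) and 5 fell, with a median of -0.014. Of all genes 24.1% were called higher and 25.3% lower. Dcn, which encodes the matrix proteoglycan decorin, fell by 2.74 ± 0.16 (edgeR, adjusted p = 5.71e-08) and Mest by 0.99 ± 0.17 (adjusted p = 0.000364). Ndn fell by 0.63 ± 0.10 (adjusted p = 0.000158), the amino acid transporter gene Slc38a4 by 0.60 ± 0.11 (adjusted p = 0.000609), and Cdkn1c also fell.

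Of the genes whose proteins are reported in IMP ribonucleoprotein particles, the RNA of 15 of 15 was measured. In the mean siRNA effect 0 rose and 6 fell, with a median of -0.066. Over all genes 24.1% were called higher and 25.3% lower in that effect. Fmr1, which encodes the translational regulator FMRP, fell by 0.46 ± 0.06 (edgeR, adjusted p = 3.15e-05) and Hnrnpa2b1 by 0.24 ± 0.05 (adjusted p = 0.000929). The helicase gene Dhx9 fell by 0.20 ± 0.04 (adjusted p = 0.00207) and Khdrbs1 by 0.19 ± 0.04 (adjusted p = 0.00133). Of 14 other KH-domain and m6A-linked reader genes 2 rose and 6 fell, with a median of -0.022. Pcbp1 fell by 0.64 ± 0.06 (adjusted p = 1.9e-06) and Fxr1 by 0.20 ± 0.04 (adjusted p = 0.002), whereas Fxr2 rose by 0.27 ± 0.03 (adjusted p = 1.99e-05).

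Among 19 measured mRNAs reported as bound by an IMP protein, 5 rose and 5 fell in the mean siRNA effect, with a median of 0.014. Of all genes 24.1% were called higher and 25.3% lower. Actb rose by 0.33 ± 0.05 (edgeR, adjusted p = 8.2e-05) and Col1a1, a collagen gene, by 0.32 ± 0.05 (adjusted p = 0.000156). The transcription factor gene Cebpd fell by 1.41 ± 0.18 (adjusted p = 3.48e-05) and Btrc, a ubiquitin ligase subunit gene, by 0.33 ± 0.05 (adjusted p = 6.18e-05). In the mean IL-17 effect 5 of the listed genes rose and 2 fell, where 1.31% of all genes were called higher and 1.42% lower. Cebpb, Cebpd and Nfkbiz entered the list from the title or subject of the series. All of these are among the genes that fell in the mean siRNA effect. Cebpd and Nfkbiz are also among those that rose in the mean IL-17 effect. The siRNA and IL-17 counts are therefore both partly set by how the list was made.

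The other high mobility group genes, which encode HMG box and nucleosome-binding HMGN proteins, numbered 11. In the mean siRNA effect 1 rose and 6 fell, with a median of -0.158, against 24.1% of all genes called higher and 25.3% lower. Hmgb1 fell by 0.53 ± 0.06 (edgeR, adjusted p = 9.87e-06), Hmgb2 by 0.54 ± 0.10 (adjusted p = 0.000803) and Hmgb3 by 0.56 ± 0.10 (adjusted p = 0.000336). Hmgn2 fell by 0.61 ± 0.06 (adjusted p = 6.98e-06), Hmgn3 by 0.48 ± 0.05 (adjusted p = 7.31e-06) and Hmgxb4 by 0.16 ± 0.04 (adjusted p = 0.00582), and Hmgxb3 rose by 0.16 ± 0.05 (adjusted p = 0.0269). In the same mean effect Hmga2 fell by 0.70 ± 0.13 (adjusted p = 0.000681).

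The genes whose log2 CPM was most like each member's over the 12 libraries, centred within each title set, were taken from 10611 candidates as a description. Libraries of both siRNAs enter these correlations, which share libraries and depth. Igf2bp2 was closest to Gas1, Car13 and Pdgfra (r = 0.995 each) and Igf2bp3 to Dkc1 (0.996), Vcan (0.994) and Sema3c (0.993). Hmga2 was closest to Tnpo1 (0.991), Il18rap (0.988) and Gramd4 (0.984), H19 to Gpnmb (0.987), Nelfa (0.985) and Ppp1r9b (0.983). Hmga1 was closest to Ppm1f (0.959), Noc2l (0.930) and Sbk1 (0.915), and Igf2bp1 to Qpctl, Cinp and Pi4k2a (0.93 each). Between members, r was 0.97 for Igf2bp3 with Hmga2, 0.96 for Igf2bp2 with Igf2bp3 and 0.92 for Igf2bp2 with H19. With a common siRNA effect over both title sets removed as well, r was 0.93, 0.91 and -0.0007 for these pairs. The difference of the siRNA effect between the title sets, called for Hmga2, Igf2bp2 and Igf2bp3, was not removed and remains in these values.

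Of the 12 tested genes next to the members 7 were called in the mean siRNA effect, against 49.5% of all genes. On either side of Igf2bp2, the SUMO protease gene Senp2 rose by 0.25 (edgeR, adjusted p = 5.31e-05) and the splicing factor gene Tra2b fell by 0.21 (adjusted p = 0.000439). Beside Igf2bp3, Gpnmb fell by 0.87 ± 0.11 (adjusted p = 2.31e-05) and Tra2a by 0.29 (adjusted p = 9.61e-05). Beside Hmga2, the methionine sulfoxide reductase gene Msrb3 rose by 0.49 ± 0.05 (adjusted p = 2.53e-06) and Llph had 0.03 (adjusted p = 0.517). Beside Igf2bp1, Zfp652 rose by 0.19 (adjusted p = 0.00412) and Snf8 had -0.09 (adjusted p = 0.15). Beside Hmga1, Lemd2 rose by 0.20 (adjusted p = 0.00118) and Nudt3 had -0.05.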

How the data were processed

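The 12 libraries, in 4 groups, were analysed from the deposited gene tables. These hold, per the file headers, raw counts of reads in exons and of all reads in a gene, and reads outside exons are their difference. TPM are the authors' values, per the file headers. Log2 fold changes and p-values adjusted for the false discovery rate in the authors' deposited table come from 4 comparisons; their model is not named there. Per the submitters' processing notes the build is mm10. Neither aligner, nor counter, nor strand setting is stated there.

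Exon counts of 13702 genes passing edgeR's filterByExpr entered a quasi-likelihood fit (edgeR 4.0.16, R 4.3.3, TMM factors, 4 groups and title set as terms, Benjamini-Hochberg adjustment at 0.05). Reads outside exons were fitted alike over 12463 genes with factors of their own, and exon minus outside in a fit with each library as a block over 11508 genes. CPM are scaled by TMM factors, and log2 CPM used a prior count of 2. Mean effects average both siRNA or both IL-17 comparisons, and the RB160 pair is a difference of log2 CPM without a test. Same-group libraries differed by more than counting noise, so none was merged. Within a group the mean chi-square per gene was 9.14 to 16.99 between NA libraries. It was 166.5 to 235.9 between an NA library and the RB160 library. Gene coordinates and identifiers are those of the deposited files. Coordinates of the let-7 windows are from GENCODE and those of the miR-675 strands from RefSeq. GENCODE starts Hmga1 at chr17:27556497, unlike the deposited files, and gives the other members the same bounds. Uniquely mapped reads are given per gene, not per exon. DESeq2 1.42.0, limma-voom of limma 3.58.1 and other settings were alternatives. The method was also run on simulated counts, with the same dispersion for every gene and no difference between title sets. That run therefore does not cover the title-set differences of these data, and its outcome is not reported here.

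The members, gene lists, tests and rules for named genes were chosen with earlier results of these data known. Named genes are the members, the called genes of lists with up to 12 measured genes, the 4 of smallest p in longer lists, the 3 genes most like each member and the genes overlapping or next to it. Some genes taken by this rule are not reported here. Igf2, Lin28a and Lin28b were singled out after values were seen, as were Cdkn1c and the imprinted genes named as rising. Python 3.11.15 with pandas 2.3.3, numpy 2.4.6 and matplotlib 3.10.9 made tables and figures.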

Additional observations from a re-analysis of the deposited data

Results flagged for a closer look

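The siRNA effect, IMP2 siRNA against control siRNA, differed between the title sets for Hmga2, Igf2bp2 and Igf2bp3 by a test of the difference itself. RB160 minus NA was 0.88 on the log2 scale for Hmga2 exon reads and 0.81 for its reads outside exons (edgeR, adjusted p = 0.00171 and 0.00118), 0.55 for Igf2bp2 (adjusted p = 0.0328) and 0.30 for Igf2bp3 (adjusted p = 0.0444). All siRNA effects concerned were smaller in the RB160 libraries. The Igf2bp3 call was lost without a filter on low counts (adjusted p = 0.0505), with uniquely mapped reads (adjusted p = 0.091) and in 11 of 12 fits with a library left out (adjusted p = 0.0604 to 0.226). The Igf2bp2 call was lost in 7 of these 12 fits (adjusted p = 0.0541 to 0.241).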

How the results depend on the processing

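Values of the members under each alternative were set beside the reported ones. In the siRNA comparisons and exon minus outside, 331 of 341 values for 17 results kept direction and side of the threshold, and 10 kept the direction and lost the call. Without the title-set term Igf2bp3 was -0.41 and -0.42 without and with IL-17 (adjusted p = 0.254 and 0.245), H19 -2.20 and -2.39 (0.442 and 0.408) and Hmga2 -0.76 and -0.72 (0.148 and 0.172), and genes called numbered 321 and 327. Hmga2 after IL-17 was -0.68 (adjusted p = 0.0504) in a robust fit and -0.96 to -0.52 with a library left out. IL-17 calls in siControl_IL17 against siControl were 197 with DESeq2, 221 without a filter, 100 with only the groups compared, 1 without the set term and 9 to 98 with a library left out. In siIMP2_IL17 against siIMP2 they were 170, 179, 349, 2 and 13 to 117, and 46 in NA libraries alone. The mean IL-17 effect called 651 genes with DESeq2, 674 without a filter, 199 in NA libraries alone, 4 without the set term and 198 to 490 with a library left out. Without the set term the mean siRNA effect called 1666 genes in exons and 425 outside. Exon minus outside called 623 genes with exon-read factors. Over 56 member results and 1070 values, 990 kept direction and side of the threshold.

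Reversed values concerned effects that had not passed the test. In the mean IL-17 effect, Igf2bp1 was -0.0043 and H19 0.08 in NA libraries alone, and Hmga2 was -0.06 there, -0.0036 with limma-voom and -0.00044 without the set term. With a library left out it was -0.0091 to 0.05 for Igf2bp1, -0.01 to 0.16 for Igf2bp2, -0.02 to 0.05 for Igf2bp3 and -0.15 to 0.09 for Hmga2. Igf2bp2 in RB160 against NA was -0.0063 with limma-voom, -0.01 with uniquely mapped reads and -0.08 to 0.13 with a library left out, and the H19 difference between sets -0.95 to 0.47. The cause was not tested. Hmga1 passed the mean siRNA test with uniquely mapped reads (-0.15, adjusted p = 0.0171) and in NA libraries alone (-0.19, 0.0115). Uniquely mapped reads could not be tried for reads outside exons. No paired analysis was possible because the labels give the groups no shared numbers and replicate numbers follow accession order, and the title set is already a term. H19 rests on 5 to 57 reads per NA library.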
